A study of Mus musculus with 13 samples.

Results

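The genes described here are 10 markers of the liver's blood vessel lining, read in liver tumours of mice lacking mir-122 and in control livers. They comprise 4 markers of sinusoidal endothelium (Stab1, Stab2, Lyve1, Clec4g), 2 carried by endothelium in general (Kdr, Pecam1) and 4 that are typical of capillaries and tumour vessels (Cd34, Plvap, Vwf, Esm1). They were taken as a named list, and each was read by its probe set with the highest mean over all 13 arrays. All 10 were among the 18193 genes measured, and no filter on level was applied to any of them.

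Gene expression was measured on Affymetrix arrays, with RNA of 1 sample on each. The mir-122 knockout samples were 3 tumours at 11 months of age and 5 tumours at 14 months. Wild-type liver came from 2 control samples at 11 months and 3 at 14 months, and all mice had the same mixed B6/129 background. Knockout liver outside a tumour is not analysed here, so effects of the genotype and of the tumour cannot be told apart. The design text counts the controls as separate mice. The labels do not say how mir-122 was deleted, nor whether each tumour came from its own mouse. The titles of KO_tumor_14M replicates 1 and 2 differ only at the end, so these tumours may come from the same mouse. P-values therefore measure the spread between these samples, part of which may be technical.

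Liver sinusoids are lined by a thin endothelium with open pores and no organised basement membrane, and its cells clear waste from the blood through scavenger receptors. Ordinary capillaries have a continuous or diaphragm-bearing lining that rests on a basement membrane rich in collagen IV. In diseased liver and in liver tumours the lining can lose its sinusoidal receptors and gain markers such as CD34, a change called capillarisation. In whole tissue, fewer cells of a type and less RNA per cell cannot be told apart.

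Some arrays stood apart over the whole table. On the first principal component over all probe sets, 5 tumours lay between 67.8 and 92.2 and the controls between -79.4 and -64.5. KO_tumor_11M replicates 1 and 2 and KO_tumor_14M replicate 4 lay from -17.8 to 1.6. These 3 tumours were apart from both sets on the second component, at -72.4, -25.2 and -72.2, while the other 10 arrays were at 7.9 to 24.8. A pair of controls, control_liver_14M replicate 3 and control_liver_11M replicate 1, was nearly identical, with a correlation of 0.995 against at most 0.990 for other control pairs. Values without these 3 tumours, or without both of these controls, are given with the results below. Levels are log2 values, their median over genes was 6.20, and levels of different genes are not set against each other.

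With the ages weighted equally, 4 of the 10 markers were higher in tumours and 0 were lower at an adjusted p under 0.05, against 10.3% of all genes higher and 9.81% lower. Those that rose were Esm1, Cd34, Lyve1 and Pecam1, and in each of them all 8 tumours lay above all 5 controls, as they did for 6.22% of all genes. The 4 come from all 3 groups of markers: 2 of 4 capillary markers, 1 of 2 general markers and 1 of 4 sinusoidal markers. The median log2 fold change was 1.70 for the capillary markers, 0.34 for the general ones and -0.48 for the sinusoidal ones, against -0.05 over all genes. No marker had all tumours below all controls, which 5.07% of genes did. In all, 20.1% of genes passed in either direction.

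**Figure D1:**
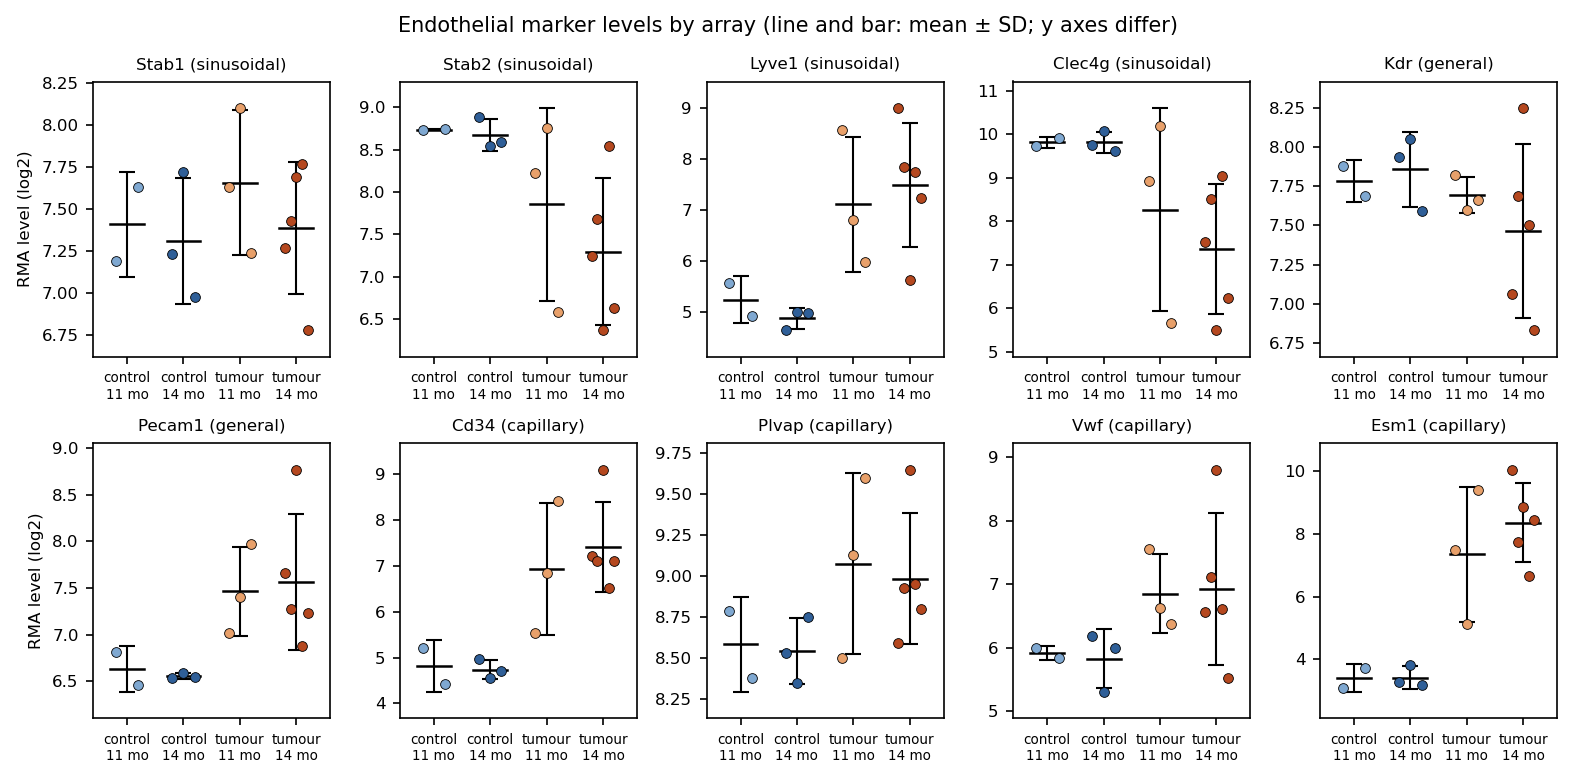
Log2 level of each marker on each array (points), with the mean and SD of each group (horizontal line and bar); the y axes differ between genes. Esm1, Cd34, Lyve1 and Pecam1 show all 8 tumours above the controls, while Stab2 and Clec4g are tightly grouped in controls and widely spread in tumours.

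Among the capillary markers, Esm1 differed most. It encodes endocan, a proteoglycan secreted by the leading cells of growing vessels. Its log2 level in controls was 3.10 and 3.72 at 11 months and 3.27, 3.83 and 3.17 at 14 months. In tumours it was 7.49, 5.14 and 9.41 at 11 months and 10.05, 7.74, 8.87, 6.67 and 8.46 at 14 months. The lowest tumour, KO_tumor_11M replicate 2, was still above the highest control. The log2 fold change over both ages was 4.43 (standard error 0.70, 95% interval 2.91 to 5.96, limma adjusted p = 0.00202). The control levels lie far below the median gene, so Esm1 may not have been above background there, and the size of the fold depends on that background. The same holds for Cd34 and Lyve1, whose controls lay near the array medians of 5.127 to 5.218. With the ages combined, Esm1 passed the threshold in all 26 settings, the one marker of the 10 to do so, with fold changes from 3.92 to 5.68 and adjusted p from 2.85e-05 to 0.0306.

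Cd34, a sialomucin on the surface of capillary endothelium and of blood progenitors, lay at 5.21 and 4.42 in the 11-month controls and at 4.96, 4.55 and 4.71 in the 14-month controls. In tumours it lay at 5.54, 6.84 and 8.42 at 11 months and at 7.22, 7.11, 9.10, 6.51 and 7.11 at 14 months. The groups did not overlap, but KO_tumor_11M replicate 1 was close to the highest control and KO_tumor_14M replicate 3 stood well above the other tumours of its age. The log2 fold change was 2.40 (standard error 0.51, 95% interval 1.28 to 3.51, adjusted p = 0.00843). Cd34 kept its call whichever single array was left out (highest adjusted p = 0.0490). It missed the threshold without both nearly identical controls (2.59, adjusted p = 0.0512) and without the 3 arrays that have no number in their title (2.47, adjusted p = 0.0515).

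Vwf, the clotting and adhesion protein stored by endothelium and platelets, was at 5.99, 5.84, 6.18, 5.31 and 6.00 in controls. In tumours it was at 7.55, 6.62 and 6.37 at 11 months and at 6.56, 7.11, 8.80, 6.61 and 5.53 at 14 months. It was above every control in 7 of 8 tumours, while KO_tumor_14M replicate 5 was within the control range. The log2 fold change of 1.01 was not past the threshold (95% interval 0.00 to 2.02, adjusted p = 0.137). Plvap, which forms the diaphragms of endothelial pores and vesicles, was at 8.79, 8.38, 8.53, 8.35 and 8.75 in controls. Plvap in tumours was at 8.50, 9.13 and 9.60 at 11 months and at 8.59, 8.93, 9.65, 8.95 and 8.80 at 14 months, so 6 of 8 tumours were above all controls. Its log2 fold change was 0.47 (95% interval 0.00 to 0.93, adjusted p = 0.137), and it passed without KO_tumor_11M replicate 1 (0.61, adjusted p = 0.0470). The mean of the 4 capillary markers, each taken relative to its control level, was 1.27 to 3.45 in tumours and -0.15 to 0.11 in controls. No test was made on this mean, since the markers were chosen with earlier results known, and Esm1 carries much of it. Tumours exceeded controls by 2.08 with all 4 markers and by 1.29 without Esm1.

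The sinusoidal markers did not share 1 direction between tumours and controls. Clec4g, the lectin LSECtin of sinusoidal endothelium, was at 9.73 and 9.91 in the 11-month controls and at 9.75, 10.08 and 9.62 in the 14-month controls. In tumours it was at 8.93, 10.20 and 5.67 at 11 months and at 7.53, 8.52, 5.50, 9.04 and 6.25 at 14 months. Thus 7 tumours lay below every control and KO_tumor_11M replicate 2 lay above every control. The tumours' SD of 1.74 compares with 0.18 in controls, and the log2 fold change of -2.0 was not past the threshold (standard error 0.78, 95% interval -3.71 to -0.29, adjusted p = 0.0888). A second Clec4g probe set, lower on every array, was at 4.77 to 5.25 in tumours and 4.98 to 5.39 in controls, a log2 fold change of -0.06. It lay near the array medians of 5.127 to 5.218, so it may not have been above background.

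Stab2, the scavenger receptor through which sinusoidal endothelium takes up hyaluronan, was at 8.73, 8.74, 8.89, 8.54 and 8.59 in controls. In tumours it was at 8.22, 8.76 and 6.58 at 11 months and at 7.25, 7.68, 6.37, 8.54 and 6.63 at 14 months. Here 6 tumours lay below every control, and KO_tumor_11M replicate 2 and KO_tumor_14M replicate 4 lay within the control range. The log2 fold change of -1.13 was not past the threshold either (standard error 0.42, 95% interval -2.04 to -0.22, adjusted p = 0.0755). The tumours lowest in Stab2 were also the lowest in Clec4g: KO_tumor_14M replicate 3, KO_tumor_11M replicate 3 and KO_tumor_14M replicate 5, in both genes. After each group's mean was subtracted, Stab2 and Clec4g correlated at 0.97 over the 13 arrays, given as a description over arrays that share groups and processing. The other pairs of sinusoidal markers ran from -0.08 for Stab1 with Lyve1 to 0.58 for Lyve1 with Clec4g, and Lyve1 with Stab2 was at 0.52.

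The calls of Stab2 and Clec4g changed when some arrays were left out. Without KO_tumor_11M replicate 2, Clec4g passed at -2.48 (adjusted p = 0.0354) and Stab2 at -1.35 (adjusted p = 0.0391). Without KO_tumor_14M replicate 4, Stab2 passed (-1.28, adjusted p = 0.0271). Without KO_tumor_11M replicate 1 neither passed (adjusted p = 0.0929 for Clec4g and 0.0794 for Stab2). Leaving out all 3 tumours that stood apart gave -3.51 for Clec4g (adjusted p = 0.00166) and -1.92 for Stab2 (adjusted p = 0.000718). These 3 arrays were singled out by their expression over all probe sets, so these values describe the other 5 tumours and are not a separate test. With all arrays kept and no age term, both passed as well (-2.11 for Clec4g, adjusted p = 0.0463, and -1.19 for Stab2, adjusted p = 0.0397).

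Lyve1, a hyaluronan receptor shared by sinusoidal and lymphatic endothelium and by some macrophages, went the other way. Its controls were at 5.57 and 4.92 at 11 months and at 4.65, 5.01 and 4.98 at 14 months. Its tumours were at 8.56, 6.80 and 5.98 at 11 months and at 8.99, 7.83, 5.63, 7.74 and 7.24 at 14 months. All tumours were above all controls, and the tumours nearest to controls, KO_tumor_14M replicate 3 and KO_tumor_11M replicate 3, were among the lowest in Clec4g. The log2 fold change was 2.24 (standard error 0.55, 95% interval 1.04 to 3.43, adjusted p = 0.0160). The gene's other probe set gave 1.18, with tumours at 5.26 to 7.60 and controls at 4.76 to 5.41 (adjusted p = 0.0698 among all probe sets). Lyve1 was also lost without control_liver_11M replicate 2 (2.07, adjusted p = 0.0719), without both nearly identical controls (2.43, adjusted p = 0.0771) and without the 3 tumours that stood apart (1.64, adjusted p = 0.0683).

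Stab1, a scavenger receptor of sinusoidal endothelium and of macrophages, was at 7.19, 7.63, 7.23, 7.72 and 6.98 in controls. In tumours Stab1 was at 7.63, 8.10 and 7.24 at 11 months and at 7.27, 7.43, 7.69, 7.77 and 6.78 at 14 months, with 5 of 8 tumours inside the control range. Its log2 fold change was 0.16 (95% interval -0.30 to 0.63, adjusted p = 0.600), so a change of 2-fold in either direction lies outside the interval. The sign of this value turned in some settings. The mean of the 4 sinusoidal markers relative to controls was -1.44 to 0.73 in tumours and -0.19 to 0.10 in controls. It has no settled direction, because Lyve1 opposes Clec4g and Stab2: tumours minus controls gave -0.18 with all 4, 0.42 without Clec4g and -0.99 without Lyve1. It was 0.16 with all 4 markers but without KO_tumor_11M replicate 3. Taken as a pair, Stab2 and Clec4g were at -3.32 to 0.22 in tumours and -0.16 to 0.06 in controls.

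**Figure D2:**
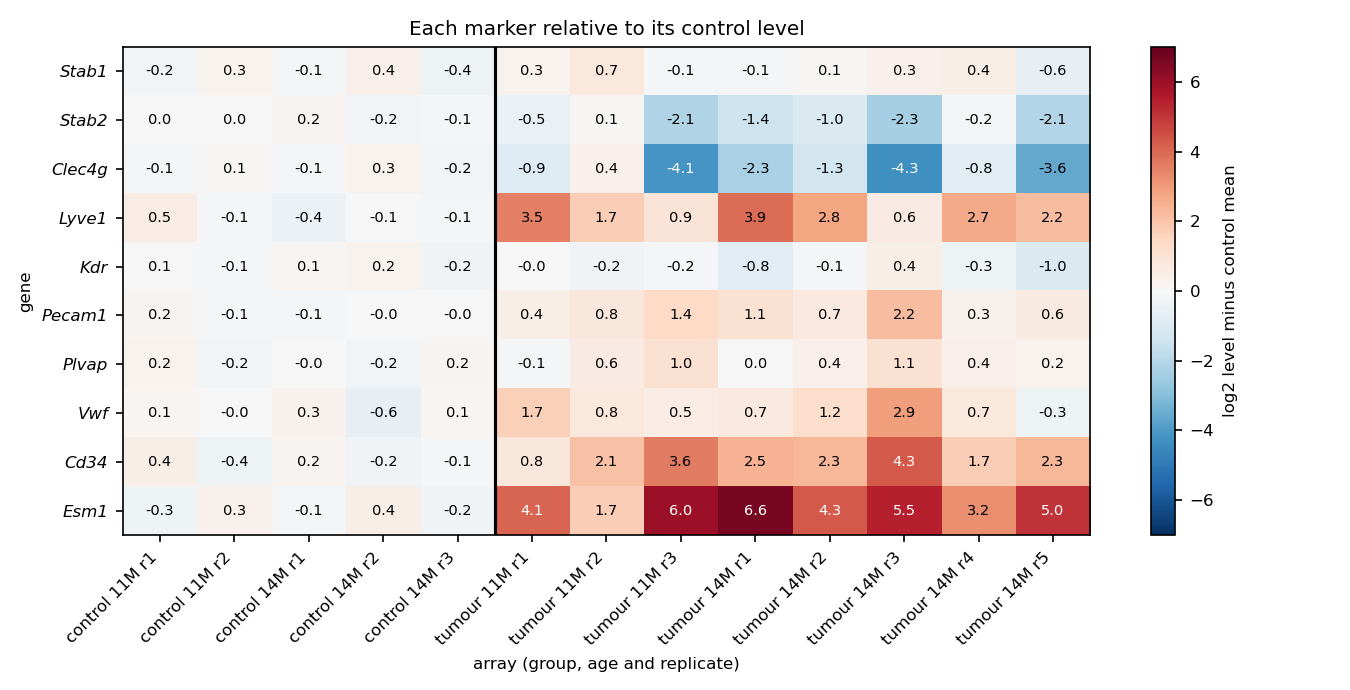
Log2 level of each marker (rows) on each array (columns) minus the mean of the controls with the ages weighted equally (red higher, blue lower). Clec4g and Stab2 are lowest in tumour 11M r3, 14M r3 and 14M r5, whereas Lyve1 is raised in all 8 tumours, least in 14M r3 and 11M r3.

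Of the general markers, Pecam1, an adhesion protein at endothelial junctions that leukocytes and platelets also carry, was at 6.81, 6.46, 6.53, 6.59 and 6.55 in controls. Tumours were at 7.02, 7.40 and 7.97 at 11 months and at 7.66, 7.28, 8.77, 6.88 and 7.23 at 14 months. The groups did not overlap, although KO_tumor_14M replicate 4 lay just above the highest control. The log2 fold change was 0.92 (standard error 0.29, 95% interval 0.29 to 1.55, adjusted p = 0.0440), close to the threshold. Of 13 fits that left out 1 array each, the call was kept in 3 (without KO_tumor_11M replicate 1, KO_tumor_14M replicate 3 or KO_tumor_14M replicate 4) and lost in the other 10 (adjusted p up to 0.145), the log2 fold change staying between 0.77 and 1.03. Leaving out the nearly identical pair of controls gave 1.01 (adjusted p = 0.139). With KO_tumor_14M replicates 1 and 2 averaged, Pecam1 also missed the threshold (0.93, adjusted p = 0.0569). Kdr, the main VEGF receptor, was at 7.88, 7.69, 7.94, 8.05 and 7.59 in controls. Its tumours were at 7.82, 7.60 and 7.66 at 11 months and at 7.06, 7.69, 8.25, 7.50 and 6.83 at 14 months. It did not pass (log2 fold change -0.24, 95% interval -0.71 to 0.22, adjusted p = 0.425), and its tumours lay on both sides of the controls.

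The sinusoidal mean was above every control in 4 tumours (0.60, 0.73, 0.13 and 0.53 against at most 0.10), inside the control range in 1 (0.02) and below it in 3. The first 4 were KO_tumor_11M replicates 1 and 2 and KO_tumor_14M replicates 2 and 4. Without Lyve1 their mean was -0.37, 0.39, -0.75 and -0.18, against -0.23 to 0.15 in controls. Their mean of Stab2 and Clec4g was -0.69, 0.22, -1.16 and -0.47, against -0.16 to 0.06 in controls. The capillary mean was above every control in all 8. Taking the sinusoidal mean minus the capillary mean, each relative to controls, every tumour was below every control: the controls ran from -0.19 to 0.25 and the tumours from -4.88 to -0.54. In the 4 tumours whose sinusoidal mean was raised with Lyve1 included, this difference comes from the capillary mean alone. KO_tumor_14M replicate 3 and KO_tumor_11M replicate 3 had the lowest values, -4.88 and -4.16. The 3 tumours that stood apart had the highest, -0.54, -0.99 and -1.01. In those 3, Esm1 and Cd34 were above all controls, while Clec4g was at 8.93, 10.20 and 9.04 against 9.62 to 10.08 in controls.

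At 14 months, Esm1 (log2 fold change 4.94, adjusted p = 0.00593), Cd34 (2.67, adjusted p = 0.0198) and Lyve1 (2.60, adjusted p = 0.0285) were higher in tumours, 3 of 10 markers against 8.37% of all genes. Cd34 lost its call without any one of the 3 controls of that age (adjusted p = 0.0621 to 0.0751), and so did Lyve1 (adjusted p = 0.0758 to 0.100). Lyve1 also lost it without KO_tumor_14M replicate 2 (adjusted p = 0.0565), and Esm1 without the arrays that have no number in their title (4.45, adjusted p = 0.0888). With all arrays, 0 of the 10 were lower at 14 months by limma, against 6.88% of genes, but Stab2 and Clec4g passed as lower in other settings. Without the 3 tumours that stood apart, Stab2 was at -1.69 (adjusted p = 0.00263) and Clec4g at -2.86 (adjusted p = 0.00797). With array weights they were at -1.44 (adjusted p = 0.0140) and -2.45 (adjusted p = 0.0251), and without KO_tumor_11M replicate 3, which alters only the estimate of spread, at -1.38 (adjusted p = 0.0418) and -2.45 (adjusted p = 0.0381). Stab2 alone passed without KO_tumor_14M replicate 4 (-1.69, adjusted p = 0.0300), where Pecam1 passed as higher (1.18, adjusted p = 0.0392).

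At 11 months limma called 0 of the 10, with 1.92% of genes called in either direction. At an unadjusted p under 0.05 there were 3 of the 10 (Esm1, Cd34 and Lyve1) and 2998 of the 18193 genes. Without the 3 tumours that stood apart, which leaves 1 tumour at 11 months whose spread is assumed to be that of the other groups, Esm1 (6.0, adjusted p = 0.00129) and Cd34 (3.6, adjusted p = 0.0134) passed as higher. Stab2 (-2.15, adjusted p = 0.0147) and Clec4g (-4.15, adjusted p = 0.0225) then passed as lower. Esm1 also passed without KO_tumor_11M replicate 2 (5.04, adjusted p = 0.0176). The count over all genes at 11 months, 349, ran from 21 without control_liver_11M replicate 2 to 731 without KO_tumor_11M replicate 2. The fold changes at 11 months had the same sign as at 14 months in all 10 markers, for example 3.93 for Esm1, 2.12 for Cd34 and -1.56 for Clec4g. The difference in effect between the ages did not pass for any marker or any gene (0% called by limma, with 0 markers and 544 genes at an unadjusted p under 0.05). It was 1.0 for Esm1 with a 95% interval from -2.05 to 4.06, which holds differences of several fold in either direction. Controls at 14 against 11 months differed by -0.36 to 0.08 over the 10 markers (0% of genes called, 326 at an unadjusted p under 0.05). Tumours at 14 against 11 months differed by -0.90 to 1.01, with 0 markers called by limma against 0.0055% of genes. At an unadjusted p under 0.05 there were 0 markers and 1139 genes.

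**Figure D3:**
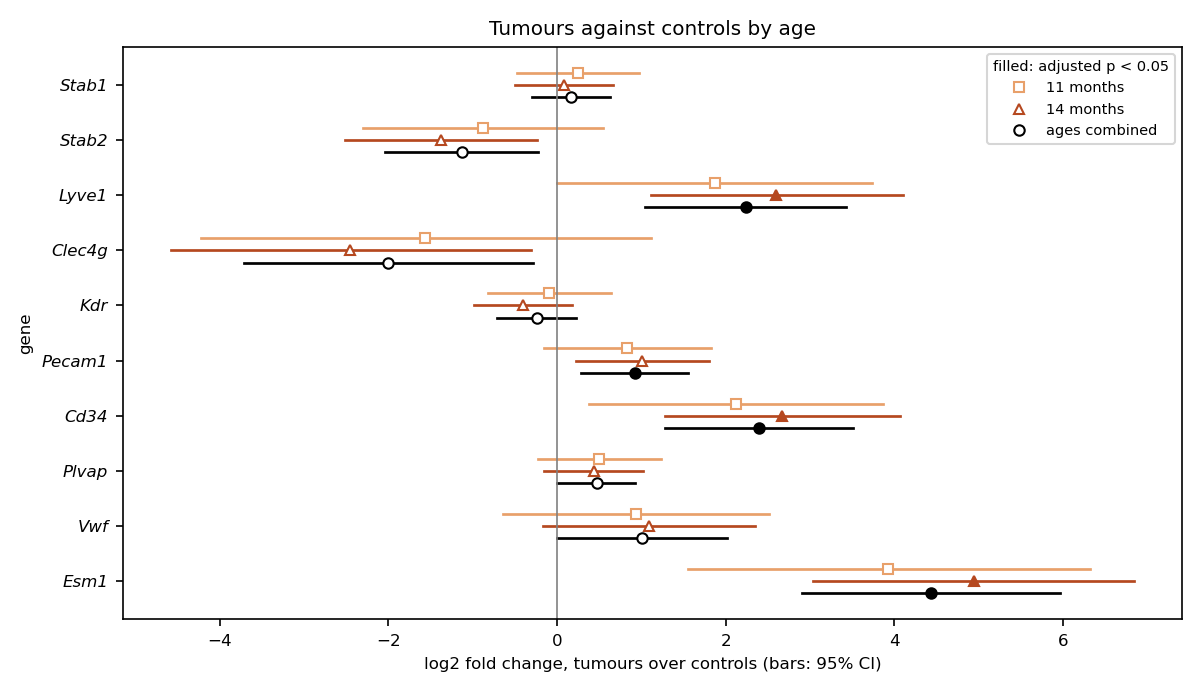
Log2 fold change of tumours over controls for each marker at 11 months, at 14 months and with the ages combined, with 95% confidence intervals; filled symbols have an adjusted p under 0.05. Signs match between the ages in all 10 markers, and intervals at 11 months, with 3 tumours and 2 controls, are the widest of the 3.

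Sequence upstream of the start site was held for 6 of the 10 markers in a RefSeq table of build GRCm38.p6. The 250 bases before the start used there are shown for Stab2 and Clec4g, the sinusoidal markers with negative fold changes, and for Cd34 and Esm1, the capillary markers that rose, since these carry the contrast. They were searched on both strands for the core letters AGGAAG and CGGAAG, read by ETS factors that act in endothelium, and for AGATAA, read by GATA factors. Capitals mark the matches. The annotated Stab2 and Clec4g genes reach to 87008038 and 3720695, inside their windows, so part of each window lies within the gene. Read on the minus strand, the Stab2 match lies in that part. The Cd34 and Esm1 windows end just before the annotated gene.
Stab2, chr10:87007943-87008192, minus strand: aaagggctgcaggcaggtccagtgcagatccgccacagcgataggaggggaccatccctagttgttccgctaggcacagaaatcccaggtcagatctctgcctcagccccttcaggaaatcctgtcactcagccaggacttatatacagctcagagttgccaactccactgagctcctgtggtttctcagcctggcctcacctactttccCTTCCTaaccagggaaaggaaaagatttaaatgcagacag
Clec4g, chr8:3720652-3720901, minus strand: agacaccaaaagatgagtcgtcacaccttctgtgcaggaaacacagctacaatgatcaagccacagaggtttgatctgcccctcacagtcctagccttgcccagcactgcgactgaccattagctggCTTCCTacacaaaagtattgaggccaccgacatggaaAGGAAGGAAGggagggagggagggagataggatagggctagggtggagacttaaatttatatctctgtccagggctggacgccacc
Cd34, chr1:194938571-194938820, plus strand: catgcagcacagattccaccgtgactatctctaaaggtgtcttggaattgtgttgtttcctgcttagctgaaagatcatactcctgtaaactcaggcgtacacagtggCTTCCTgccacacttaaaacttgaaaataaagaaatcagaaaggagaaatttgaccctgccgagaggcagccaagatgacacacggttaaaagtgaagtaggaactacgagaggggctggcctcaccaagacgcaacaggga
Esm1, chr13:113209409-113209658, plus strand: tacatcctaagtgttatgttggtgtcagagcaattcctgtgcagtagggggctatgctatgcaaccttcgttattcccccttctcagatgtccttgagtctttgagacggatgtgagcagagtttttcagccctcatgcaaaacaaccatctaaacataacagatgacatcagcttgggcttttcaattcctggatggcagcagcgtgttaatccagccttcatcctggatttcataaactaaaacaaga

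AGGAAG or its complement occurred 1 time in the Stab2 window, 3 times in Clec4g (of which 2 overlap), 1 time in Cd34 and 0 times in Esm1. Over all 32851 windows of this length, 29.5% held it. CGGAAG, found in 13.6% of windows, and AGATAA, found in 9.99%, occurred in none of the 4 windows shown. These are matches of letters, and the arrays do not measure binding.

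Other genes of the same vessels were taken from fixed lists, to be read against the 10.3% of all genes higher and 9.81% lower. Of 20 other sinusoidal genes, 1 passed as higher and 2 as lower, and 17 did not pass, so the share lower was near the background. Their log2 fold changes had a median of -0.54 and 14 were negative. Fcna, a ficolin of sinusoidal endothelium and Kupffer cells, fell by 2.16 (tumours 7.01 ± 1.38, SD, n = 8; controls 9.27 ± 0.13, n = 5; adjusted p = 0.0305), and Cd209b, a lectin, fell by 0.60 (adjusted p = 0.00880). Both were lower in all 8 tumours than in any control. Cd36, a fatty acid carrier that hepatocytes and macrophages also make, was higher by 2.20 (adjusted p = 0.0181). Cd209b lay at 4.49 to 5.64 on all arrays, under the median gene, and whether it rose above background is unknown.

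Among 24 measured genes of capillaries and tumour vessels, 10 were higher, 1 was lower and 13 did not pass, with a median of 0.99. Col4a1, a chain of basement membrane collagen IV, was at 9.50 to 11.73 in tumours and 7.35 to 7.81 in controls (log2 fold change 2.74, adjusted p = 0.000736). The chemokine receptor Cxcr4 rose by 2.61 (adjusted p = 0.00650), with KO_tumor_11M replicate 1 inside the control range, and the potassium channel subunit Kcne3 rose by 2.30 (adjusted p = 0.0215). Controls lay at 4.14 to 5.17 for Cxcr4 and 3.21 to 3.69 for Kcne3, under the median gene. The size of both folds may therefore depend on background. The insulin receptor Insr fell by 0.53 (adjusted p = 0.0489). Several of these genes are also made by stellate cells, leukocytes or hepatocytes.

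Of 26 genes common to all endothelium, 4 passed as higher, 0 as lower and 22 did not pass. Their log2 fold changes had a median of 0.22, with 17 positive and 9 negative. The factor Fli1 rose by 1.29 (6.66 ± 0.44, n = 8, against 5.37 ± 0.23, n = 5, adjusted p = 0.00332), Ecscr by 1.3 (adjusted p = 0.00664) and the adhesion protein Icam2 by 1.12 (adjusted p = 0.00887). The mean level of this list was 6.52 to 7.62 in tumours and 6.46 to 6.69 in controls, highest in KO_tumor_14M replicate 3. When every gene was taken relative to this mean, a setting added after the data were seen, the log2 fold change was 4.14 for Esm1, 2.10 for Cd34, 1.94 for Lyve1, -2.30 for Clec4g and -1.42 for Stab2. The calls of Esm1 (adjusted p = 0.000695), Cd34 (adjusted p = 0.00374) and Lyve1 (adjusted p = 0.0422) were kept and that of Pecam1 was lost (0.62, adjusted p = 0.0596).

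Of 25 ligands and receptors of the VEGF, angiopoietin and Notch pathways, which include Kdr, 1 was higher and 1 lower, with a median of 0.31. Vegfc, a ligand of lymphatic and venous growth, rose by 0.62 (adjusted p = 0.00870) and Nrp2, its co-receptor, fell by 0.92 (6.35 ± 0.41, n = 8, against 7.28 ± 0.24, n = 5, adjusted p = 0.0122). Of 8 signals that sinusoidal endothelium sends to hepatocytes, 0 were higher and 2 lower. Their log2 fold changes had a median of -0.05, as over all genes, with 4 positive and 4 negative. Bmp2, an iron-regulating signal, fell by 1.31 (adjusted p = 0.0215) and Wnt2 fell by 1.11 (adjusted p = 0.0328). Wnt2 was at 5.81 in KO_tumor_11M replicate 2 and 5.84 in KO_tumor_14M replicate 4, both inside the control range of 5.72 to 6.31. Of 8 adhesion genes, 4 were higher and 0 lower, with Icam1 higher by 1.79 (adjusted p = 0.000626), Thbd by 1.34 (adjusted p = 0.0447) and Vcam1 by 1.23 (adjusted p = 0.0172). Cell types other than endothelium make these too.

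**Figure D4:**
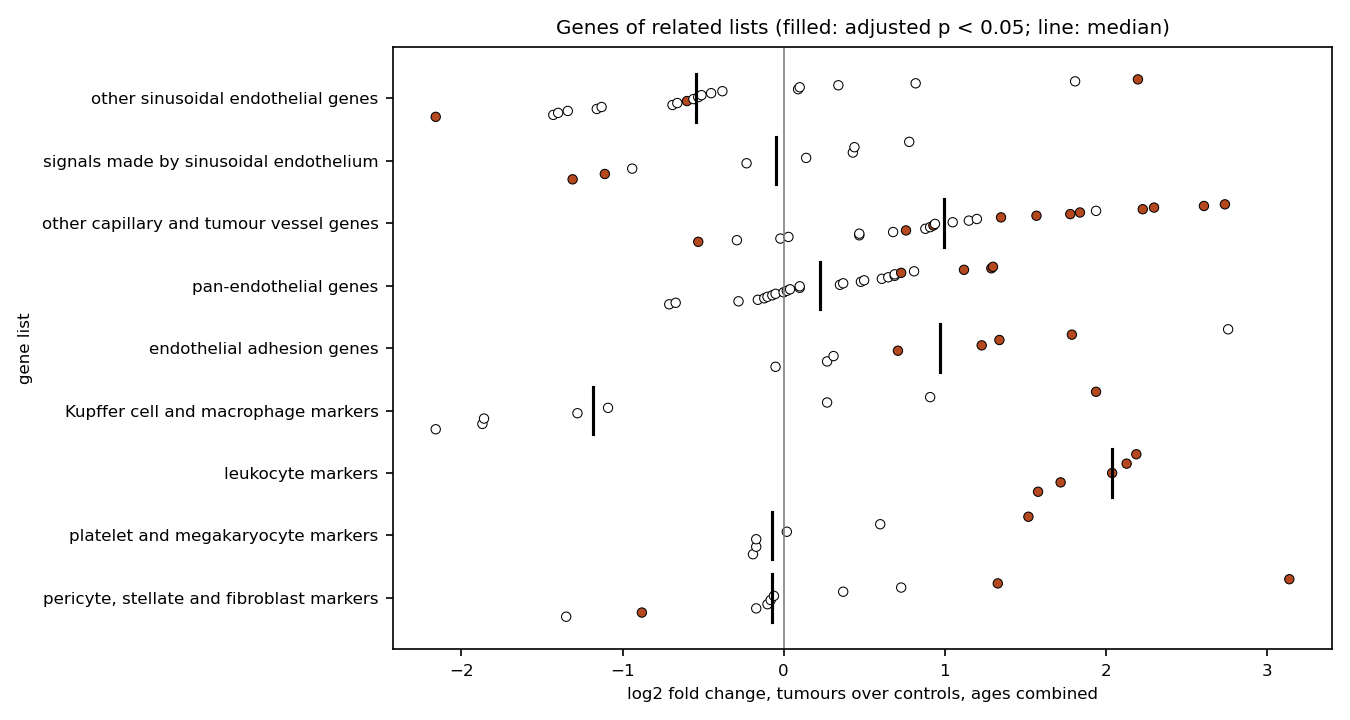
Log2 fold change of tumours over controls, ages combined, for genes of 9 related lists (one point per gene, filled where the adjusted p is under 0.05; vertical line, median of the list). The capillary list is shifted to the right with a median of 0.99 and the other sinusoidal genes to the left with a median of -0.54.

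Markers of other cells that share these genes also differed, and their part in the results was not tested. Of 8 Kupffer cell and macrophage markers, 1 was higher (Cd68, 1.94, adjusted p = 0.00434), 0 lower and 7 not past the threshold. Their log2 fold changes had a median of -1.19, and 5 of the 8 were negative. The list's mean level was 6.68 to 9.46 in tumours and 8.22 to 8.68 in controls. Clec4f, which marks Kupffer cells, was at 5.65, 5.19 and 6.88 in the 3 tumours lowest in Clec4g, at 5.54 in KO_tumor_14M replicate 1 and 9.53 in KO_tumor_11M replicate 2, against 9.49 to 9.73 in controls. All 5 leukocyte markers were higher (mean level 8.18 to 10 against 6.97 to 7.72), including Coro1a by 2.19 (adjusted p = 0.00108), Cd52 by 2.13 (adjusted p = 0.00387) and Ptprc by 2.04 (adjusted p = 0.00147), beside the rise of Pecam1 and Cd34.

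Of 6 platelet markers, which bear on Vwf and Pecam1, 1 was higher and 0 lower. This was Pf4 (1.52, adjusted p = 0.0138). The list's log2 fold changes had a median of -0.08, with 3 positive and 3 negative. Its mean level was 5.62 to 6.05 in controls, 7.31 in KO_tumor_14M replicate 3 and 5.62 to 6.08 in the other tumours. KO_tumor_14M replicate 3, the highest in Vwf, Pecam1 and Cd34, also had the highest platelet mean, with Ppbp at 9.46 against 4.32 to 6.03 on the other arrays. Of 10 pericyte, stellate and fibroblast markers, 2 were higher and 1 lower: Col1a1 rose by 3.14 (adjusted p = 0.0167), Pdgfrb rose by 1.33 (adjusted p = 0.0142) and Lrat fell by 0.88 (adjusted p = 0.0428). The list's log2 fold changes had a median of -0.07, with 4 positive and 6 negative. Its mean level was 7.39 to 8.55 in tumours and 7.53 to 7.99 in controls.

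Of 4 lymphatic markers, which bear on Lyve1, limma called 0 as higher or lower, while 3 had an unadjusted p under 0.05, as 6625 of the 18193 genes did. The highest in level were Prox1 (-0.62, adjusted p = 0.120) and Reln (-1.35, adjusted p = 0.124). Their mean level, 5.59 to 6.37 in tumours and 6.43 to 6.72 in controls, was below all controls in every tumour, while Lyve1 was above. Pdpn was at 4.48 to 5.89 on all arrays, under the median gene, and Prox1 and Reln are also made by hepatocytes and stellate cells. Hepatocyte markers had a mean level of 12.72 to 13.35 in tumours and 13.30 to 13.48 in controls, with 1 of 6 lower (Asgr1, -1.12, adjusted p = 0.0254). Of the 4 biliary markers, limma called 0 and 0 had an unadjusted p under 0.05, with Sox9 at 0.38 and Epcam at -0.04 (mean level 4.92 to 6.37 against 5.03 to 5.59).

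Of the 26 genes from these lists that passed and are named here, 10 kept their call whichever array was left out: Col4a1, Cxcr4, Ecscr, Fli1, Vegfc, Icam1, Cd68, Coro1a, Cd52 and Ptprc. Without control_liver_11M replicate 2 alone, Cd36, Cd209b, Icam2, Vcam1, Pf4, Col1a1 and Pdgfrb lost theirs (adjusted p = 0.0501 to 0.0922). Nrp2 lost it without control_liver_11M replicate 1 (adjusted p = 0.0708), and Kcne3 without either of these controls. Of the 13 fits, Bmp2 missed the threshold in 3, Asgr1 in 4, Fcna in 6, Wnt2 in 8, Insr in 9, and Thbd and Lrat in 10.

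Genes whose levels followed the markers most closely within the groups were found by Pearson correlation over the 13 arrays, after each group's mean was subtracted, among genes above the median level. Closest to the mean of the sinusoidal markers were Oit3 (0.98), the orphan receptor gene Gpr182 (0.97), clotting factor F8 (0.97), the anticoagulant protein C gene Proc (0.97) and the coenzyme A enzyme Pank1 (0.97). Oit3, Gpr182 and F8 were on the sinusoidal list and did not pass between tumours and controls. Proc and Pank1 were on none of the lists, and by limma both were lower in tumours. Their log2 fold changes were -0.88 (adjusted p = 0.00986) for Proc and -1.71 (adjusted p = 0.0156) for Pank1. Oit3 was at 5.29, 5.86 and 6.09 in the 3 tumours lowest in Clec4g, at 7.60 to 8.16 in the other 5 and at 8.12 to 8.44 in controls. Closest to the capillary mean were Apln (0.98), a peptide ligand of growing vessels, the lipase anchor Gpihbp1 (0.98), the glycolytic enzyme Pgk1 (0.97), Upp1 (0.96) and the transcription cofactor Lmo2 (0.96). Apln was at 9.13 in KO_tumor_14M replicate 3, 7.60 in KO_tumor_11M replicate 3, 7.43 in KO_tumor_14M replicate 1, 5.44 to 6.17 in the other 5 tumours and 5.24 to 5.63 in controls. Most of each mean's variation comes from a few tumours, and the correlations are descriptions without a test.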

How the data were processed

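The authors' deposited values are log2 levels from robust multi-array analysis (RMA) in Partek Genomics Suite, per the series design text and the labels. The log base was inferred from the range of the values. The software version was not given in the sources used here, nor was the genome build. Of 45101 probe sets, 34945 name 1 gene, 932 several and 9160 none, and 64 are controls. Each of 18193 genes was read by its highest probe set, with no filter.

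A single model over the 13 arrays estimated the 4 group means (lmFit and eBayes of limma 3.58.1, R 4.3.3), with Benjamini-Hochberg adjustment over all genes and a threshold of 0.05. Means ± SD are over arrays, and intervals are at 95%. Array number, 2 to 5 per group, limits the precision. The fit was tested on simulated data in which each gene had the same spread on all arrays. That does not cover genes more spread in tumours than in controls.

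The markers, lists and tests were chosen with earlier results of these data known. Beside the markers, 13 lists were used. From each, the named genes are the top 3 by size of change among those that passed, the top one of the opposite direction, or the 2 with the highest level where none passed. To these come the 5 genes most like each marker mean. Clec4f, Ppbp, Pdpn and the array values of Oit3 and Apln were named after their values were seen. Alternatives covered probe set, normalisation, level filter, spread, arrays, age term and threshold.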

Additional observations from a re-analysis of the deposited data

Results flagged for a closer look

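In 40 genes, the 10 markers and the named genes of the lists, the 5 tumours at 14 months were searched for an array far from the other 4. Chance flags about 1 such set in 20. There were 4 such values, all in KO_tumor_14M replicate 3 and all high. Cd34 was at 9.10 there, against 6.51 to 7.22 in the other 4. Ecscr was at 7.62 (others 6.38 to 6.49), Fli1 at 7.42 (6.32 to 6.51) and Pf4 at 8.59 (6.44 to 7.06). Without this tumour Cd34 had a log2 fold change of 2.18 (adjusted p = 0.00705).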

How the results depend on the processing

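Over the 10 markers with the ages combined, 244 of 282 alternative values kept their direction and side of the threshold. Esm1 kept its call in all of its settings, and Vwf, Kdr and Stab1 gained none. Stab1 reversed without both nearly identical controls (-0.03), without the 3 tumours that stood apart (-0.09) and relative to the pan-endothelial mean, an alternative chosen after seeing the data (-0.13). At 14 months Stab1 was -0.06 after repeated quantile normalisation and with only arrays numbered in their titles, -0.09 without that control pair or control_liver_14M replicate 3, -0.02 without the tumours that stood apart or KO_tumor_14M replicate 4, and -0.22 relative to the pan-endothelial mean, with a highest value of 0.28 when single arrays were left out. At 11 months it was -0.17 and -0.05 without the tumours that stood apart and relative to the pan-endothelial mean, and Kdr was 0.00 without the control pair or control_liver_11M replicate 1, its lowest value with single arrays left out being -0.18.

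Stab2 passed with array weights (-1.09), without the tumours that stood apart (-1.92) and with no age term (-1.19), and ranged from -1.35 to -0.81 with single arrays left out. Clec4g passed without the tumours that stood apart (-3.51) and with no age term (-2.11), ranging from -2.48 to -1.35. Plvap passed without those tumours (0.73) and ranged from 0.34 to 0.61. Lyve1 lost its call without the control pair (2.43), without those tumours (1.64), with numbered titles only (1.95), at its other probe set (1.18) and at an adjusted p under 0.01 (2.24), ranging from 1.88 to 2.52. Cd34 lost it without the pair (2.59) and with numbered titles (2.47). Pecam1 lost it after quantile normalisation (0.82), with KO_tumor_14M replicates 1 and 2 averaged (0.93), without the pair (1.01), with numbered titles (0.95), relative to the pan-endothelial mean (0.62), and at an adjusted p under 0.01 or a 2-fold minimum (0.92), ranging from 0.77 to 1.03.

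Markers higher numbered 1 without the pair, 1 with numbered titles, 2 at an adjusted p under 0.01 and 2 to 5 with single arrays left out. Markers lower numbered 1 with array weights, 2 without the tumours that stood apart, 2 with no age term and 0 to 2 with single arrays left out. At 14 months markers lower numbered 2 with array weights or without the tumours that stood apart and 0 to 2 with single arrays left out, and markers higher 0 (with numbered titles) to 4 over all settings. All genes called ranged from 249 (numbered titles) to 5659 (array weights) at 14 months, and from 21 (without control_liver_11M replicate 2) to 2269 (without the tumours that stood apart) at 11 months. Over all genes, ages combined, the count was 1443 at an adjusted p under 0.01, 1224 with a 2-fold minimum, 1368 without the pair, 1759 with numbered titles, 2227 relative to the pan-endothelial mean and 1814 to 4359 with single arrays left out. The sinusoidal mean was 0.13 without Stab2, 0.42 without Clec4g and -0.37 to 0.16 with single arrays left out. The capillary mean was 1.29 without Esm1. Epcam was 0.56 with probe sets averaged, 0.06 without the pair, 0.04 with numbered titles and 0.03 without control_liver_11M replicate 1 or KO_tumor_11M replicate 1, with a lowest value of -0.1 among such fits. The causes were not tested. No paired analysis was possible because the labels give no replicate numbers shared between groups.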
